A study of Homo sapiens with 8 samples.

Results

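MHC class I molecules show peptides from inside the cell to CD8 T cells, and the genes described here belong to that pathway. Of 10 listed class I presentation genes, 3 were named on the array, namely ERAP1, TAPBP and B2M, out of 14884 genes tested. The members were taken by name from the list, and where several probe sets named a gene, the brightest on average was read. The other 7 listed genes, TAP1, TAP2, PSMB8, PSMB9, NLRC5, HLA-E and HLA-F, had no named probe set and were not analysed here. The pathway as a whole is therefore not described, only its light chain, its loading chaperone and its trimming enzyme.

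The arrays came from 2 established human Ewing sarcoma cell lines, SK-ES1 and A673, which are cancer cells grown in culture and driven by a fusion of EWSR1 with FLI1. Cells of each line were treated with a hairpin RNA that targets RING1B (shRING1B) or, as the control, one that targets GFP (shGFP). The 4 groups, SK-ES1 shRING1B, SK-ES1 shGFP, A673 shRING1B and A673 shGFP, had 2 arrays each. RING1B is a ubiquitin ligase of Polycomb repressive complex 1, which marks histones and keeps many developmental genes silent. The comparisons ask which transcripts differed when RING1B was targeted, and how the lines differed under the control hairpin. The labels do not give the hairpin's sequence or the time after its delivery. RNF2, which encodes RING1B, was not analysed here, and how far the hairpin lowered it is not given. The labels do not say whether the 2 arrays of a group hold RNA of separate cultures. The p-values below therefore measure the spread between these arrays alone, which may be technical.

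In the class I pathway, the proteasome cuts proteins into peptides and a transporter carries them into the endoplasmic reticulum. There ERAP1, an aminopeptidase, trims their front ends to the length that class I molecules hold. TAPBP encodes tapasin, the chaperone that bridges empty class I molecules to the transporter and helps select tightly bound peptides. B2M encodes beta-2 microglobulin, the light chain without which class I molecules do not reach the cell surface. Interferons raise the transcription of many genes of this pathway through IRF and STAT factors, and Ewing sarcoma is known as a tumour with low class I expression. Polycomb repressive complex 2 is known to repress class I pathway genes in several tumour types.

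The promoters of the 3 genes are shown because each holds the core of the interferon-stimulated response element, the stretch that IRF factors are known to bind. The windows run from 250 bases before to 50 bases after the RefSeq gene start, on the strand of the gene, in GRCh38.p14. Capitals mark matches on either strand to the core as searched, which is GAAA, any 2 bases, then GAAA.
B2M, chr15:44711267-44711566, plus strand: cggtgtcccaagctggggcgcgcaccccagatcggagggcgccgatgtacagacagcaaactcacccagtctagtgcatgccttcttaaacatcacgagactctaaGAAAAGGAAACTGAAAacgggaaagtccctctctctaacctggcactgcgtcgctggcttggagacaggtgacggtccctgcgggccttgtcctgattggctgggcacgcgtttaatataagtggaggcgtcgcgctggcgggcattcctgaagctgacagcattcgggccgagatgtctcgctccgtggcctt
TAPBP, chr6:33314029-33314328, minus strand: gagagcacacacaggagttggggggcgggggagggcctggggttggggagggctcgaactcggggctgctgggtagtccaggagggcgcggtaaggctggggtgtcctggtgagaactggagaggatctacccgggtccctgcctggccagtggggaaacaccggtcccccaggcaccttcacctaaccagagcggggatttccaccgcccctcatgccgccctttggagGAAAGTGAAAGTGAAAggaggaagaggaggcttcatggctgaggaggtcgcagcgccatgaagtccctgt
ERAP1, chr5:96807896-96808195, minus strand: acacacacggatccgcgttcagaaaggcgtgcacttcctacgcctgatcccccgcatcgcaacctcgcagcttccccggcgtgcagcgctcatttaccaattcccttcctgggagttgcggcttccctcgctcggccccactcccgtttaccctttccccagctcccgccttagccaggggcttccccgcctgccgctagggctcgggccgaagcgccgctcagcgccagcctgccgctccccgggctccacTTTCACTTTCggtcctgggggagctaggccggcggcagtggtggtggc
In B2M, 2 overlapping matches began 144 and 138 bases before the start. In TAPBP, 2 overlapping matches began 20 and 14 bases before the start. In ERAP1, 1 match on the opposite strand began 2 bases after the start. A further ERAP1 window, at another RefSeq start, held no match. Of 35116 promoter windows, 1255 (3.57%) held this motif. Counted by gene, 1195 of 27305 genes (4.38%) held it in any of their windows. Among the 24 measured interferon-stimulated genes with a window, 17 held it, also counted by gene. The CCAAT box, which is part of the known class I promoter module, was searched as CCAAT on both strands and lay in the B2M and ERAP1 windows above. It lay in 34.6% of all windows and, counted by gene, in any window of 39.7% of genes. GGAAGGAA, a short form of the repeats that EWSR1-FLI1 is known to bind, lay in none of the 3 genes' windows and in 3.67% of all windows. No CCAAT match overlapped a match to the interferon core. A match describes letters in this window and not a bound site.

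The values are log2 expression values from RMA, so a difference of 1 is a 2-fold difference. Array medians lay between 4.01 and 4.1, and within each group the 2 arrays had a correlation of 0.991 to 0.994. CD99, the surface protein used to recognise Ewing sarcoma, averaged 11.4 in both SK-ES1 groups, 12.3 in A673 shRING1B and 12.2 in A673 shGFP cells. It is 1 of 9 listed Ewing sarcoma markers, of which 5 were measured. For shRING1B against shGFP, limma called 0 of the 5 in SK-ES1 and 0 in A673, where it called 0.0672% and 3.74% of all genes. Under the control hairpin it called 1 of the 5 as higher and 2 as lower in SK-ES1, with differences from -0.80 to 0.78. Of all genes, 13.7% were called higher and 17% lower there. In RNA from whole cultures, fewer cells that express a gene and less RNA per cell cannot be told apart.

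ERAP1 had the widest range of the 3 genes, and its 4 groups did not overlap. Its log2 level was 4.21 and 4.32 in the SK-ES1 shRING1B arrays, against 4.94 and 4.93 in the SK-ES1 shGFP arrays. It was 6.17 and 6.35 in the A673 shRING1B arrays, against 6.92 and 6.76 in the A673 shGFP arrays. In each line both shRING1B arrays lay below both shGFP arrays, and both SK-ES1 groups lay below both A673 groups. The order from high to low was A673 shGFP, A673 shRING1B, SK-ES1 shGFP and SK-ES1 shRING1B. The gaps between neighbouring group means were 0.58, 1.32 and 0.67, each wider than the range within either group beside it. The 2 SK-ES1 shRING1B values, 4.21 and 4.32, lay close above 4.06, the median of all probe sets and arrays. The size of a change that involves them therefore rests in part on low signal.

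TAPBP levels were closer together. They were 8.07 and 7.74 in the SK-ES1 shRING1B arrays, against 8.19 and 8.30 in the SK-ES1 shGFP arrays. They were 8.12 and 8.16 in the A673 shRING1B arrays, against 7.95 and 7.92 in the A673 shGFP arrays. The shRING1B arrays thus lay below the shGFP arrays in SK-ES1 and above them in A673. From high to low the order was SK-ES1 shGFP, A673 shRING1B, A673 shGFP and SK-ES1 shRING1B, and the 2 A673 shGFP arrays lay inside the range of the 2 SK-ES1 shRING1B arrays.

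B2M levels were 8.45 and 8.81 in the SK-ES1 shRING1B arrays, against 8.78 and 8.87 in the SK-ES1 shGFP arrays. They were 9.13 and 9.09 in the A673 shRING1B arrays, against 8.82 and 8.80 in the A673 shGFP arrays. The A673 shRING1B arrays stood above all others. The SK-ES1 shRING1B and SK-ES1 shGFP arrays overlapped, and the A673 shGFP arrays lay inside the range of the SK-ES1 shGFP arrays. The order of the last 3 groups therefore rests on differences within their spread.

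**Figure D1:**
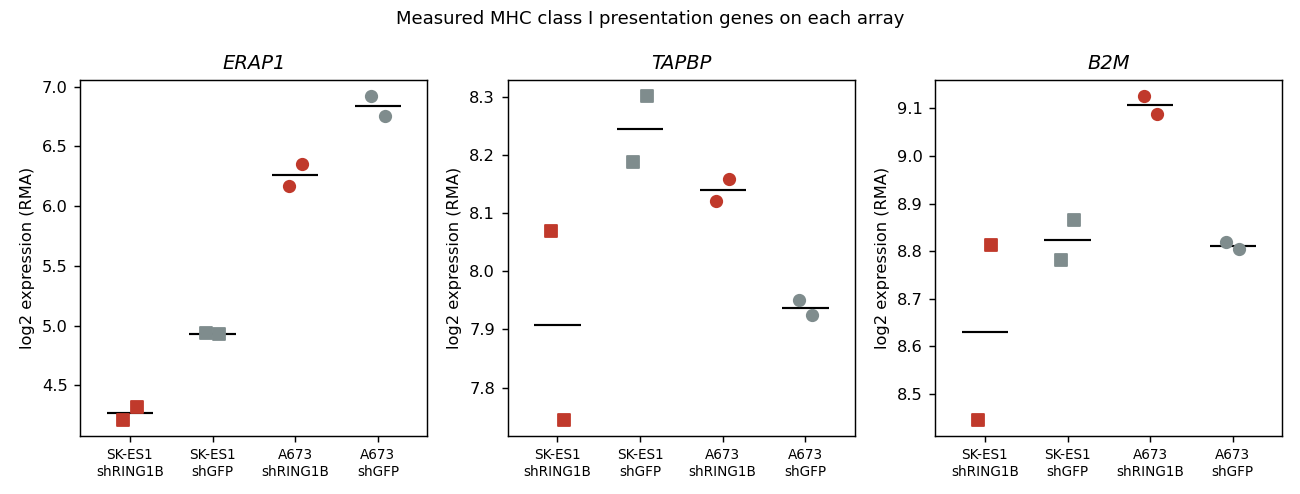
Log2 expression (RMA) of ERAP1, TAPBP and B2M on each of the 8 arrays, with squares for SK-ES1, circles for A673, red for shRING1B, grey for shGFP and a black line at the mean of the 2 arrays of a group. The vertical axes differ between panels and do not start at 0. ERAP1 separates all 4 groups, while the SK-ES1 shRING1B arrays of TAPBP (8.07 and 7.74) and B2M (8.45 and 8.81) are the most spread.

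In A673, the RING1B hairpin went with less ERAP1, while B2M and TAPBP lay higher without passing the test. ERAP1 averaged 6.26 ± 0.13 in shRING1B and 6.84 ± 0.117 in shGFP cells (SD, n = 2 each), and fell by 0.58 on the log2 scale (standard error 0.121, limma adjusted p = 0.0309). That is a fold of 0.668. B2M averaged 9.11 ± 0.027 in shRING1B and 8.81 ± 0.0109 in shGFP cells (log2 change 0.30, standard error 0.135, limma adjusted p = 0.27). TAPBP averaged 8.14 ± 0.0267 in shRING1B and 7.94 ± 0.0183 in shGFP cells (log2 change 0.20, standard error 0.13, limma adjusted p = 0.45).

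Of the 3 genes in A673, 1 fell, 0 rose and 2 did not pass, where limma called 3.74% of all genes, 0.705% as higher and 3.04% as lower. Arrays of the 2 A673 groups did not overlap for any of the 3 genes, which held for 49.9% of all genes, 26% with shRING1B higher and 23.9% with it lower. The median change of the 3 genes was 0.20, against 0.01 over all genes. ERAP1 did not pass when A673 shGFP replicate 1 (adjusted p = 0.159), A673 shGFP replicate 2 (0.128) or A673 shRING1B replicate 1 (0.133) was left out, nor with the 4 A673 arrays alone (0.0869) or with all 48144 probe sets tested (0.0742).

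In SK-ES1, all 3 genes lay lower under the RING1B hairpin, and none passed the test. ERAP1 averaged 4.27 ± 0.0742 in shRING1B and 4.93 ± 0.0102 in shGFP cells (SD, n = 2 each; log2 change -0.67, standard error 0.121, limma adjusted p = 0.145). TAPBP averaged 7.91 ± 0.23 in shRING1B and 8.24 ± 0.0797 in shGFP cells (log2 change -0.34, standard error 0.13, limma adjusted p = 0.623). B2M averaged 8.63 ± 0.259 in shRING1B and 8.82 ± 0.0595 in shGFP cells (log2 change -0.19, standard error 0.135, limma adjusted p = 0.835).

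With limma, 0 of 3 genes were called in SK-ES1, and 2 of 3, ERAP1 and TAPBP, had an unadjusted p under 0.05, as did 7.36% of all genes. Limma called 0.0672% of all genes in this line, so few genes of any kind passed. ERAP1 and TAPBP had shRING1B arrays wholly below the shGFP arrays, as 19.3% of all genes did; 17.8% lay wholly above, 37.2% in all. The median change of the 3 genes was -0.34, against -0.0039 over all genes. The SK-ES1 values of B2M and TAPBP rest on single arrays. With SK-ES1 shRING1B replicate 1 left out, the change was -0.011 for B2M and -0.50 for TAPBP. With SK-ES1 shRING1B replicate 2 left out, it was -0.38 for B2M and -0.18 for TAPBP.

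The ERAP1 change had the same sign in SK-ES1 and A673. The difference of the changes, SK-ES1 minus A673, was -0.09, with a 95% interval of -0.47 to 0.30 (limma adjusted p = 0.876). Both SK-ES1 shRING1B values of ERAP1 lay close above 4.06, the median of all probe sets, so this difference rests in part on low signal. The mean of both effects, a contrast added after the values were seen, was -0.62 (standard error 0.0854, limma adjusted p = 0.00831), a fold of 0.649. Limma called 1.36% of all genes in that contrast, 0.114% as higher and 1.24% as lower. Arrays did not overlap in either line and lay lower in both for 5.38% of all genes. The call on the mean was kept with each array left out and under each of the other alternatives tried, with adjusted p-values between 0.00132 and 0.0434. In that contrast B2M had 0.05 (adjusted p = 0.861) and TAPBP -0.07 (adjusted p = 0.794).

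For TAPBP and B2M the point estimates had opposite signs in the 2 lines. The difference between the lines was -0.54 for TAPBP, with a 95% interval of -0.95 to -0.13 and a limma adjusted p of 0.243. For B2M it was -0.49, with an interval of -0.91 to -0.07 and a limma adjusted p of 0.293. Neither difference passed the test over all genes, where limma called 0.786% of genes, 0.625% as higher and 0.161% as lower. These intervals are not adjusted for the number of genes, and the unadjusted p was under 0.05 for 2 of the 3 genes and for 13.7% of all genes. TAPBP had opposite signs without overlap of arrays in either line, as 8.69% of all genes did.

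**Figure D2:**
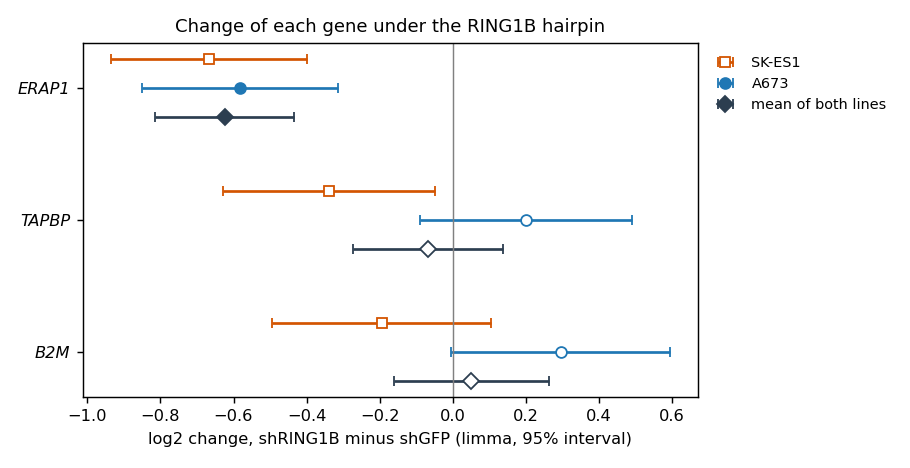
Log2 change (shRING1B minus shGFP) of ERAP1, TAPBP and B2M in SK-ES1, in A673 and as the mean of both lines, with 95% intervals from limma that are not adjusted for the number of genes; filled symbols passed an adjusted p of 0.05. ERAP1 lies below 0 in each comparison (-0.67, -0.58 and -0.62), while TAPBP and B2M lie on either side of 0 in the 2 lines.

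Under the control hairpin, ERAP1 differed between the lines far more than it did between hairpins. SK-ES1 shGFP had 4.93 ± 0.0102 and A673 shGFP had 6.84 ± 0.117 (SD, n = 2 each), a log2 difference of -1.91 (standard error 0.121, limma adjusted p = 1.44e-06). ERAP1 was thus 3.75-fold lower in SK-ES1. The call held in all 15 alternatives, with differences between -1.99 and -1.82. TAPBP was 0.31 higher in SK-ES1 without passing the test (limma adjusted p = 0.106), and B2M differed by 0.01 with a 95% interval of -0.29 to 0.31 (limma adjusted p = 0.962). Of the 3 genes 1 was called, where limma called 30.7% of all genes, 13.7% as higher and 17% as lower in SK-ES1. The arrays did not overlap for ERAP1 and TAPBP, as for 64.8% of all genes, 32.3% higher and 32.6% lower in SK-ES1. This comparison shares its shGFP arrays with the hairpin comparisons above.

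More than 1 probe set was named for 2 of the 3 genes. B2M had 2 probe sets, whose values over the 8 arrays correlated at 0.956. The B2M probe set not used above had a log2 change of -0.05 in SK-ES1 and 0.34 in A673. TAPBP had 5 probe sets that correlated at 0.990 or above, and the values of 1 pair were equal within 1e-06, so they are not independent readings. Their log2 changes ran from -0.35 to -0.33 in SK-ES1 and from 0.20 to 0.24 in A673. ERAP1 had 1 probe set, so no other probe set could be set beside it here.

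Across the 8 arrays the 3 genes did not follow 1 pattern. As a description over arrays that share line and hairpin, Pearson's r was 0.55 between B2M and ERAP1, 0.20 between B2M and TAPBP and -0.04 between TAPBP and ERAP1. The 5 protein-coding genes whose values were most like the mean of the 3 genes were LGR5, LGR4, TJP1, KLF12 and EMB, with r between 0.978 and 0.989 over 8 arrays among 1541 genes whose group means spanned at least 1 log2 unit. That mean follows ERAP1, which has the widest range. LGR5, a receptor of R-spondins, averaged 4.26 in SK-ES1 shRING1B, 5.40 in SK-ES1 shGFP, 7.44 in A673 shRING1B and 7.77 in A673 shGFP cells.

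Of 11 other listed genes of peptide loading and trimming, 7 were measured. Limma called 0 of 7 in SK-ES1, with 1 at an unadjusted p under 0.05, where 7.36% of all genes were. It called 0 of 7 in A673, with 2 at an unadjusted p under 0.05, where 18.9% of all genes were, and 1 as higher with a trended robust variance. In SK-ES1, 5 of 7 lay below 0 with a median of -0.02, and 3 had shRING1B arrays wholly below the shGFP arrays. Of all genes, 51.0% lay below 0 in SK-ES1 and 19.3% had arrays wholly below. In A673, 5 of 7 lay above 0 with a median of 0.09, and 4 had shRING1B arrays wholly above the shGFP arrays. Of all 14884 genes, 7768 lay above 0 in A673 and 26% had arrays wholly above. PRKCSH, a subunit of the glucosidase that trims sugars for lectin chaperones, had 0.26 in A673 (limma adjusted p = 0.236). SEC61A1, the channel of the endoplasmic reticulum membrane, had 0.06 in SK-ES1 (limma adjusted p = 0.955) and 0.24 in A673 (limma adjusted p = 0.349). The calreticulin gene CALR, a lectin chaperone that holds class I molecules for loading, had 0.07 in SK-ES1 (limma adjusted p = 0.954) and 0.03 in A673 (limma adjusted p = 0.94). TAPBPL, the tapasin-related editor of bound peptides, had -0.22 in SK-ES1 (limma adjusted p = 0.826) and -0.20 in A673 (limma adjusted p = 0.516). Under the control hairpin TAPBPL was lower in SK-ES1 than in A673, at -0.57 (limma adjusted p = 0.0159), and the chaperone CANX was higher, at 0.36 (limma adjusted p = 0.0305). Neither of these calls held with A673 shGFP replicate 2 or SK-ES1 shGFP replicate 2 left out, and that of CANX was also lost without replicate 1 of either shGFP group and with all probe sets tested.

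ERAP2, the partner enzyme of ERAP1 and its neighbour on chromosome 5, was among those not called. It had 3.03 and 3.37 in the SK-ES1 shRING1B arrays, against 3.77 and 3.39 in the SK-ES1 shGFP arrays. It had 3.90 and 3.75 in the A673 shRING1B arrays, against 3.46 and 3.37 in the A673 shGFP arrays. Its log2 change was -0.38 in SK-ES1 (limma adjusted p = 0.655) and 0.41 in A673 (limma adjusted p = 0.207), and the difference between the lines was -0.79 (limma adjusted p = 0.173). ERAP1 and ERAP2 thus had the same sign in SK-ES1 and opposite signs in A673. Every ERAP2 value lay below 4.06, the median of all probe sets and arrays, so its signs rest on low signal.

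The tested genes around ERAP1 showed no fall of its size. Among the 5 tested protein-coding genes on each side, in RefSeq's order and chosen after the values of ERAP1 were seen, limma called 0 in SK-ES1 and 0 in A673. Of all genes it called 0.0672% in SK-ES1 and 3.74% in A673, so a count of 0 among so few genes is near those shares. Of these 10 genes, 9 lay below 0 in SK-ES1 with a median of -0.18, and 4 lay below 0 in A673 with a median of 0.02. Over all genes, 51.0% lay below 0 in SK-ES1 and 47.8% in A673. The means of SPATA9, ERAP2 and LIX1 lay below 4.06, the median of all probe sets, in every group. Those of RFESD lay below it in both A673 groups. At such levels a fall can hardly be seen, so these genes say little about one. CAST, the gene of the protease inhibitor calpastatin and the tested gene before ERAP1, had -0.13 in SK-ES1 and 0.17 in A673. The 10 neighbours of TAPBP had medians of 0.04 in SK-ES1 and 0.08 in A673, and those of B2M 0.09 and 0.15. Among these, WDR76 near B2M rose in A673 by 0.49 (limma adjusted p = 0.0436), where limma called 0.705% of all genes as higher. The WDR76 call was not followed under the alternatives.

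**Figure D3:**
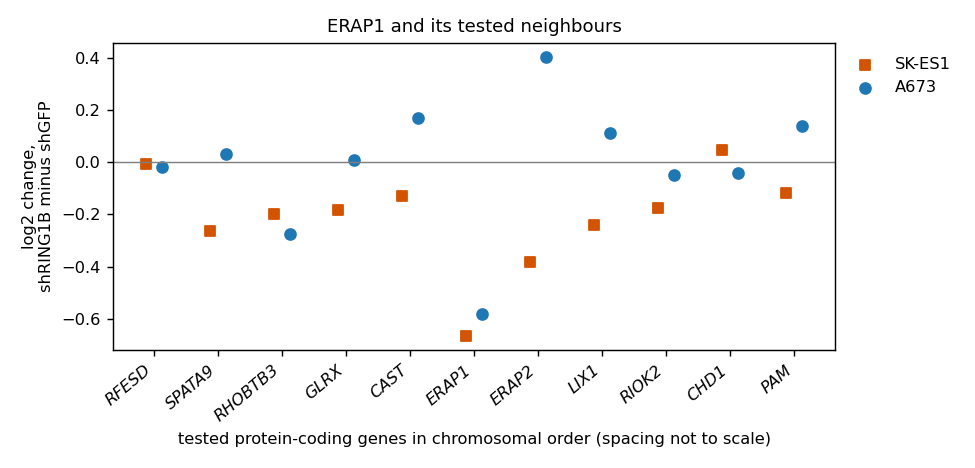
Log2 change (shRING1B minus shGFP) of ERAP1 and of the 5 tested protein-coding genes on each side of it on chromosome 5, in chromosomal order with even spacing, in SK-ES1 (squares) and A673 (circles). ERAP1 has the lowest value in each line (-0.67 and -0.58), and ERAP2 beside it lies at -0.38 in SK-ES1 and 0.41 in A673. The means of SPATA9, ERAP2 and LIX1 lay below 4.06, the median of all probe sets, in every group.

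Class I-like molecules include the stress ligands that the NKG2D receptor of natural killer cells reads. Of 11 listed, 7 were measured. In A673, 1 fell, 0 rose and 6 did not pass, where limma called 3.04% of all genes as lower and 0.705% as higher. ULBP3, one of those ligands, had 5.67 and 6.17 in the A673 shRING1B arrays, against 6.69 and 6.86 in the A673 shGFP arrays, and fell by 0.86 (standard error 0.167, limma adjusted p = 0.0242). ULBP3 did not pass when A673 shGFP replicate 1 (adjusted p = 0.0617), A673 shGFP replicate 2 (0.206) or A673 shRING1B replicate 1 (0.0943) was left out, with the 4 A673 arrays alone (0.0772) and with all probe sets tested (0.0517). ULBP2, of the same family, had -0.69 in A673 (limma adjusted p = 0.0738). MICB, a further NKG2D ligand, had -0.15 in SK-ES1 (limma adjusted p = 0.889) and 0.34 in A673 (limma adjusted p = 0.204). In SK-ES1 limma called 0 of 7, with 1 at an unadjusted p under 0.05, where 7.36% of all genes were. There ULBP3 had -0.14 (limma adjusted p = 0.921). The difference between the lines was 0.72 for ULBP3 (limma adjusted p = 0.229).

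HFE, the class I-like regulator of iron uptake that pairs with beta-2 microglobulin, had changes of opposite sign in the lines, as B2M did. It had 5.87 and 5.94 in the SK-ES1 shRING1B arrays, against 6.25 and 6.29 in the SK-ES1 shGFP arrays. It had 5.17 and 5.33 in the A673 shRING1B arrays, against 4.86 and 4.92 in the A673 shGFP arrays. The log2 changes were -0.36 in SK-ES1 and 0.37 in A673, which limma did not call (adjusted p = 0.521 and 0.112), and their difference was -0.73 (limma adjusted p = 0.0749). Under the control hairpin, 3 of the 7 class I-like genes were higher in SK-ES1 than in A673 and 1 was lower. Limma called 13.7% of all genes as higher and 17% as lower in that comparison. ULBP1 was higher by 2.04 (limma adjusted p = 4.11e-05) and HFE by 1.38 (limma adjusted p = 9.08e-06). MICB was higher by 0.57 (limma adjusted p = 0.00891), while ULBP3 was lower, at -0.85 (limma adjusted p = 0.00308). The MICB call was lost in 2 of 15 alternatives, and those of ULBP1, HFE and ULBP3 in 0.

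Of 26 listed regulators of class I transcription, 17 were measured, and limma called 0 in SK-ES1 and 0 in A673. At an unadjusted p under 0.05 were 2 in SK-ES1 and 1 in A673, where 7.36% and 18.9% of all genes were. The median change of the 17 was -0.03 in SK-ES1 and 0.01 in A673. IRF9, the DNA-binding subunit of the factor that type I interferons activate, had 6.90 and 6.70 in the SK-ES1 shRING1B arrays, against 7.48 and 7.42 in the SK-ES1 shGFP arrays. It had 6.26 and 6.42 in the A673 shRING1B arrays, against 6.04 and 6.11 in the A673 shGFP arrays. The IRF9 groups did not overlap in either line, and its sign differed between them. Its log2 change was -0.65 in SK-ES1 (limma adjusted p = 0.152) and 0.27 in A673 (limma adjusted p = 0.267), and the difference of -0.92 passed the test (limma adjusted p = 0.045). That call was lost in 10 of 14 alternatives, among them each array left out, with an adjusted p of up to 0.164.

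None of the 17 was called in either line, except 1 as lower in SK-ES1 and 1 as higher in A673 with a trended robust variance. RFXAP, a subunit of the factor that binds the X box of MHC promoters, had -0.23 in SK-ES1 (limma adjusted p = 0.742). The interferon receptor kinases JAK1 and JAK2 had 0.24 (limma adjusted p = 0.264) and 0.23 (limma adjusted p = 0.33) in A673. IRF1, an activator of class I genes induced by interferon gamma, had -0.09 in SK-ES1 (limma adjusted p = 0.937) and -0.02 in A673 (limma adjusted p = 0.964). IRF2, a related factor, had -0.34 in SK-ES1 (limma adjusted p = 0.604) and -0.02 in A673 (limma adjusted p = 0.967). EZH2, the histone methyltransferase of Polycomb repressive complex 2, had -0.03 in SK-ES1 (limma adjusted p = 0.979) and 0.22 in A673 (limma adjusted p = 0.289).

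Between the lines under the control hairpin, limma called 13.7% of all genes as higher and 17% as lower in SK-ES1. Of the 17 regulators, 3, IRF9, RFXAP and JAK1, were higher in SK-ES1 and 5, IRF2, SOCS1, JAK2, IRF1 and RELA, were lower. These counts were 2 higher and 3 lower without A673 shGFP replicate 1, A673 shGFP replicate 2 or SK-ES1 shGFP replicate 1. IRF9 was 1.38 higher in SK-ES1 (limma adjusted p = 1.57e-05), with 7.45 ± 0.0424 in SK-ES1 shGFP and 6.07 ± 0.0516 in A673 shGFP (SD, n = 2 each). IRF2 was lower in SK-ES1, with 6.47 ± 0.104 in SK-ES1 shGFP and 7.56 ± 0.0646 in A673 shGFP, a difference of -1.09 (limma adjusted p = 9.03e-05). IRF1 differed by -0.52 (limma adjusted p = 0.0132), which did not pass with A673 shGFP replicate 1 (0.0581), A673 shGFP replicate 2 (0.0701) or SK-ES1 shGFP replicate 1 (0.0981) left out. SOCS1, an inhibitor of interferon signalling, differed by -1.03 (limma adjusted p = 0.00136). ERAP1 and IRF2 were thus both lower in SK-ES1, where IRF9 was higher. POMP, which helps to assemble the proteasome and was the measured gene of its list, was also lower in SK-ES1, with a difference of -0.81 (limma adjusted p = 0.00338). CTSS, the measured gene of 13 listed for MHC class II presentation, had -0.17 in SK-ES1 and -0.09 in A673 under the hairpin, neither called by limma (adjusted p = 0.9 and 0.83).

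Of 42 listed interferon-stimulated genes outside the pathway, 31 were measured. In SK-ES1 27 of them lay below 0 with a median of -0.49, where 51.0% of all genes lay below 0. In A673 16 of them lay below 0 with a median of -0.02, where 47.8% of all genes lay below 0. Limma called 0.0672% of all genes as lower in SK-ES1 and 3.04% in A673. Of this list it called 3 as lower in SK-ES1, BST2, CXCL10 and SP100, and 2 as lower in A673, IFIH1 and IFI44L. With single arrays left out these counts ranged from 0 to 2 in SK-ES1 and from 0 to 1 in A673. Their mean level was 5.71 and 5.68 in the SK-ES1 shRING1B arrays, against 6.23 and 6.26 in SK-ES1 shGFP. In A673 it was 4.91 and 4.94 in the A673 shRING1B arrays, against 5.01 and 5.01 in the A673 shGFP arrays. The SK-ES1 changes of ERAP1, TAPBP and B2M had the sign of most interferon-stimulated genes, a sign that 51.0% of all genes shared. The B2M arrays of the 2 SK-ES1 groups overlapped, and any link to these genes was not tested. In the mean of both lines ERAP1 had -0.62, TAPBP -0.07 and B2M 0.05. There 28 of the 31 interferon-stimulated genes lay below 0 with a median of -0.25. Of all genes, 48.2% lay below 0 there, and limma called 1.24% as lower. Of the 31 it called 7 as lower, among them IFI44L at -0.999 (limma adjusted p = 0.00686) and CXCL10 at -0.96 (limma adjusted p = 0.00725). That count ranged from 3 to 5 with single arrays left out. Under the control hairpin 22 of the 31 were higher in SK-ES1 and 2 lower, whereas ERAP1 was lower there. Limma called 13.7% of all genes as higher and 17% as lower in that comparison.

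**Figure D4:**
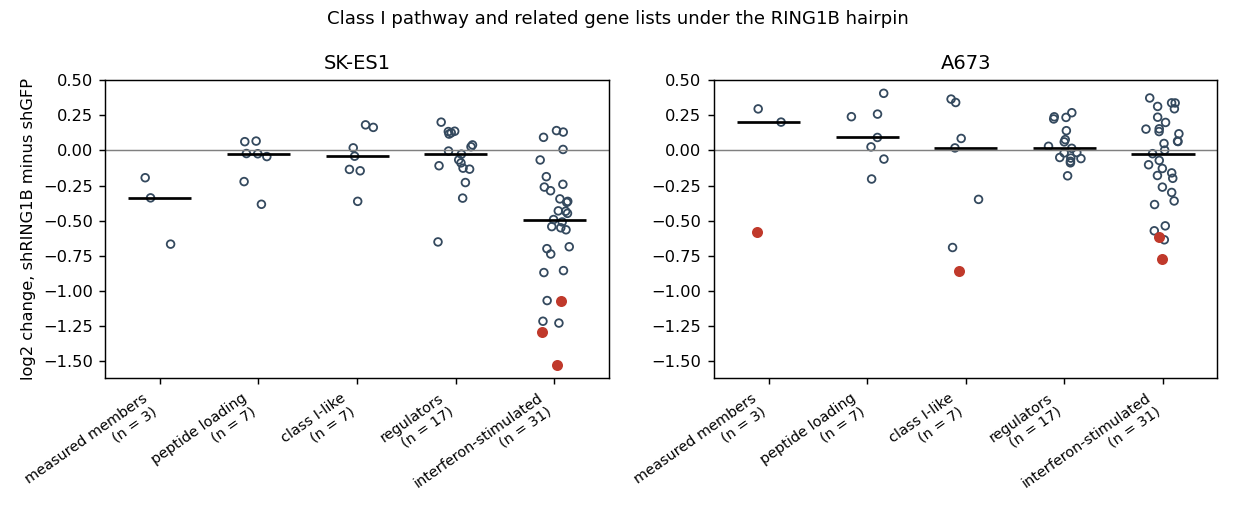
Log2 change (shRING1B minus shGFP) of each measured gene of 5 lists in SK-ES1 (left) and A673 (right); red points passed a limma adjusted p of 0.05, open points did not, and black lines are list medians. The interferon-stimulated list has a median of -0.49 in SK-ES1 and -0.02 in A673, while the medians of peptide loading, class I-like and regulator genes lie between -0.04 and 0.09 in both lines.

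Leukocytes carry much class I RNA, and 5 of 12 listed leukocyte markers were measured. Their mean level was 5.40 and 5.17 in the SK-ES1 shRING1B arrays, against 5.38 and 5.37 in the SK-ES1 shGFP arrays. It was 5.05 and 5.13 in the A673 shRING1B arrays, against 4.80 and 4.77 in the A673 shGFP arrays. All 5 had a change above 0 in A673, as did 7768 of all 14884 genes. Their median was 0.27, and limma called 0 of the 5. At an unadjusted p under 0.05 were 2 of the 5, where 18.9% of all genes were. The samples were cultured cell lines, so these transcripts are not read here as leukocytes. Any link to the 0.30 of B2M was not tested. CD14 averaged 3.35 in SK-ES1 shRING1B, 3.46 in SK-ES1 shGFP, 3.53 in A673 shRING1B and 3.32 in A673 shGFP cells. These CD14 means lay below 4.06, the median of all probe sets. The mean of the 5 markers lay above 4.06 on every array, so CD14 does not stand for the list. Under the control hairpin, limma called 1 of the 5 markers as higher in SK-ES1, where it called 13.7% of all genes as higher. The differences of the 5 ran from 0.14 to 2.05.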

How the data were processed

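Total RNA came from a Qiagen extraction, and labelling used 30 ng of it with Affymetrix's WT PLUS kit, per the labels' protocols. The deposited values are log2 expression per probe set, made by the authors with RMA, and limma is also named, both without version, per the submitters' processing notes. RMA normalizes arrays by quantiles, so a shift common to all genes is removed. The array annotation and genome build used upstream are not given in the sources used here, and signal over background was not measured. The number of arrays limits the precision.

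Of 48144 probe sets, 16098 (33.4%) carried 1 symbol and 0 carried more than 1, while 32046 had no name here. For each of 14884 genes the probe set with the greatest mean was used. Symbols came from GEO's platform annotation, and gene order and promoter sequences from RefSeq's GRCh38.p14 tables, and a promoter was found for all 3 members.

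Using limma 3.58.1 (R 4.3.3), the 8 arrays were fitted together with 1 mean per group, with 4 residual and 6 prior degrees of freedom. P-values are two-sided and adjusted by Benjamini-Hochberg over all 14884 genes, with calls under 0.05. The script was tested on simulated data. Groups came from the labels' line and hairpin, and replicate numbers, given in accession order, only name arrays.

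The members, lists and tests were chosen with earlier results of these data known. All measured members are named in every comparison. From other lists, the rule allows up to 4 genes with the smallest p and any called gene per comparison, and part of these are printed, fewest for interferon-stimulated genes. The 5 genes most like the members' mean are named too. CD14 and the neighbours were picked after their values were seen. The endothelial and fibroblast markers had 5 of 8 genes measured, and limma called 0 of them under either hairpin comparison (1 at an unadjusted p under 0.05 in each line). Between the lines under the control hairpin it called 2 of the 5 as higher and 1 as lower in SK-ES1. It called 13.7% and 17% of all genes there. The differences of the 5 ran from -0.67 to 3.37. Listed heavy chains and constitutive proteasome genes were not analysed here. The alternatives were repeated quantile and cyclic loess normalization, a trended robust variance, the compared arrays alone, a signal filter at 4.06, the mean of a gene's probe sets, all probe sets tested, and each array left out.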

Additional observations from a re-analysis of the deposited data

Results flagged for a closer look

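For the difference between the lines, limma called 0.786% of all genes, 0.625% as higher and 0.161% as lower. The effect of the RING1B hairpin differed between SK-ES1 and A673, by the fitted difference over all genes, for 6 genes of the lists. IRF9, of 17 measured class I regulators, was among them, with a difference of -0.92. The other 5 came from 31 measured interferon-stimulated genes. They had -1.24 for IFI44, -0.89 for IFITM3, -1.29 for BST2, -1.14 for SP100 and -0.88 for IRF7. Limma called 0 of the 3 members, 0 of 7 genes of peptide loading and 0 of 7 class I-like genes, and POMP was not called. The limma adjusted p-values of the 6 genes lay between 0.0162, for BST2, and 0.0495, for IRF7. The log2 changes in SK-ES1 lay between -1.29, for BST2, and -0.55, for IFITM3, and those in A673 between 0.002, for BST2, and 0.37, for IFI44. IFI44 and BST2 each lost the call in 5 of 14 alternatives, IFITM3 and SP100 in 9, and IRF9 and IRF7 in 10.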

How the results depend on the processing

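The count of called genes among ERAP1, TAPBP and B2M was 1 in A673, and 0 with the 4 A673 arrays alone or with all probe sets tested; over the arrays left out in turn it ranged from 0 to 1. In SK-ES1 and for the difference between lines it stayed at 0 under every alternative run, and for ERAP1 in SK-ES1 the adjusted p ran from 0.0586 to 0.619. Under the control hairpin the count was 1, and 2 with a trended robust variance, where TAPBP passed (adjusted p = 0.0345). Signs turned for values near 0. Over the arrays left out, the ERAP1 difference between lines ran from -0.18 to 0.0066, the B2M difference under shGFP from -0.030 to 0.054, and, in the mean of both lines, B2M from -0.041 to 0.14 and TAPBP from -0.15 to 0.013. With the mean of a gene's probe sets, B2M under shGFP was -0.0019. The cause of these shifts and lost calls was not tested. Repeated quantile or cyclic loess normalization kept the median change of all genes between -0.018 and 0.023. Interferon-stimulated genes called as lower in SK-ES1 numbered 3, and 9 with a trended robust variance, 7 above the median signal, 5 with the mean of probe sets, 2 with SK-ES1 arrays alone and 1 with all probe sets tested. In A673 they numbered 2, and 0 with A673 arrays alone or all probe sets tested, 1 with either normalization and 3 with a trended robust variance or above the median signal. In the mean of both lines they numbered 7, and 4 with all probe sets tested. No paired analysis was possible because the labels give no replicate numbers that groups share.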
